A study of Arabidopsis thaliana with 16 samples.

Results

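The genes described here encode proteins of the cytosolic ribosome of Arabidopsis thaliana. They are 48 loci taken from a fixed list of locus identifiers, out of 33602 genes in the deposited table. By the part of the ribosome they belong to, 28 encode proteins of the large subunit body, 17 encode proteins of the small subunit and 3 encode proteins of the lateral stalk (RPP0, RPP1 and RPP2). They cover 32 protein families, and 14 of these families are listed with more than 1 gene copy. The rule names loci and uses no measured value, but the list was drawn up with results of these data known. It is a subset, since Arabidopsis carries further copies of most families.

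The cytosolic ribosome reads nuclear messenger RNA. Its small subunit decodes the message, its large subunit joins the amino acids, and the stalk on the large subunit recruits the elongation factors. In plants each ribosomal protein comes from a small gene family, and growing and dividing tissue is known for high levels of these transcripts. The kinase TOR, which links growth to sugar and hormone supply, is known to act on ribosome production and on the phosphorylation of the small-subunit protein RPS6.

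The libraries fall into 4 groups of 4. The inducible line at 12 h and the inducible line at 0 h carry ATML1pro:GR-SPCH1-4A-YFP, in which the epidermal ATML1 promoter drives a variant of the stomatal transcription factor SPEECHLESS (SPCH) fused to the glucocorticoid receptor, so that the protein enters the nucleus when dexamethasone is added. Wild type at 12 h and wild type at 0 h carry no transgene. Both 12 h groups had 100 µM dexamethasone and both 0 h groups were untreated, so dexamethasone and 12 h of elapsed time cannot be told apart within a line. The plants were seedlings grown in shaken liquid medium with sucrose, and treatment began 7 days after germination. In each group, replicates 1 and 2 were sequenced in lane 1 and replicates 3 and 4 in lane 2, and most members differed between the lanes, so lane values stand beside the results. Nothing in the labels ties the 4 replicates to separate cultures, so the spread that the p-values rest on may be technical only.

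Library totals lay between 16251477 and 22944391 reads assigned to genes. The SPCH transcript, to which transgene reads also count, had 158 to 233 normalized counts in the inducible line at 12 h, 116 to 154 in the inducible line at 0 h, 59.0 to 72.0 in wild type at 12 h and 56.1 to 69.7 in wild type at 0 h, so the lines did not overlap. Replicates 1 and 2 of wild type at 0 h differed from each other more than any other pair of a group within a lane, with a chi-square per gene of 40.5 against 10.5 to 23.1 for the other 7 pairs. Leaf, root, epidermal and vascular markers were above 0 in every library. Among the root markers, WOX5 was very low, at 1.94 to 16.1 normalized counts, and PLT1 was low, at 11.8 to 32.6. Of 3 shoot meristem markers, WUS was at 0 in all 16 libraries and CLV3 was at 0 in most of them.

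All 48 genes passed the filter on low values, which required 10 or more normalized counts in 4 or more libraries, and 36 of them stood among the 1000 genes with the highest mean level. Their median mean level was 6055 normalized counts, against 299 for all 20756 genes tested. The highest was AT5G27850 (RPL18, a large-subunit protein), with 25056, 24496, 18976 and 19829.7 normalized counts in the inducible line at 12 h, 29240.0, 25654, 25019 and 23139 in the inducible line at 0 h, 23020.1, 23095, 16180.2 and 22003 in wild type at 12 h and 30291, 17971, 23751 and 25351 in wild type at 0 h. The lowest was AT3G04770 (RPSAb, the second copy of the small-subunit protein SA), with 164, 198, 209 and 277 in the inducible line at 12 h, 187, 151, 267 and 208 in the inducible line at 0 h, 166, 122, 214 and 219 in wild type at 12 h and 192, 191, 295 and 272 in wild type at 0 h. Even there the smallest count was 119 reads. Per kilobase of mRNA, AT3G11940 (RPS5A, a small-subunit protein) was highest at 18507 normalized counts per kb, and RPL18 and SAC52 (AT1G14320, RPL10) followed at 17375 and 17032. RPSAb was lowest on that scale too, at 172.

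Together the 48 genes took 1.73, 1.82, 1.88 and 1.91% of reads in the 4 libraries of the inducible line at 12 h, 1.98, 1.72, 2.06 and 2.02% in the inducible line at 0 h, 1.59, 1.55, 1.62 and 1.78% in wild type at 12 h and 1.92, 1.81, 2.11 and 2.24% in wild type at 0 h. The wild-type libraries at 12 h all lay below those at 0 h, whereas in the inducible line the times overlapped. By group mean, wild type at 12 h was lowest for 45 of the 48 members, and the highest group was wild type at 0 h for 34, the inducible line at 0 h for 13 and the inducible line at 12 h for 1. The mean share was 1.84 ± 0.0781% in the inducible line at 12 h, 1.95 ± 0.151% in the inducible line at 0 h, 1.63 ± 0.0987% in wild type at 12 h and 2.02 ± 0.190% in wild type at 0 h (SD, n = 4 each). Exact 95% binomial intervals of the single shares were at most 0.0138 percentage points wide and cover counting error only. In bulk RNA, fewer cells rich in these transcripts and less of them per cell cannot be told apart. Because the list was drawn up in that way, no p-value is given for this sum.

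**Figure D1:**
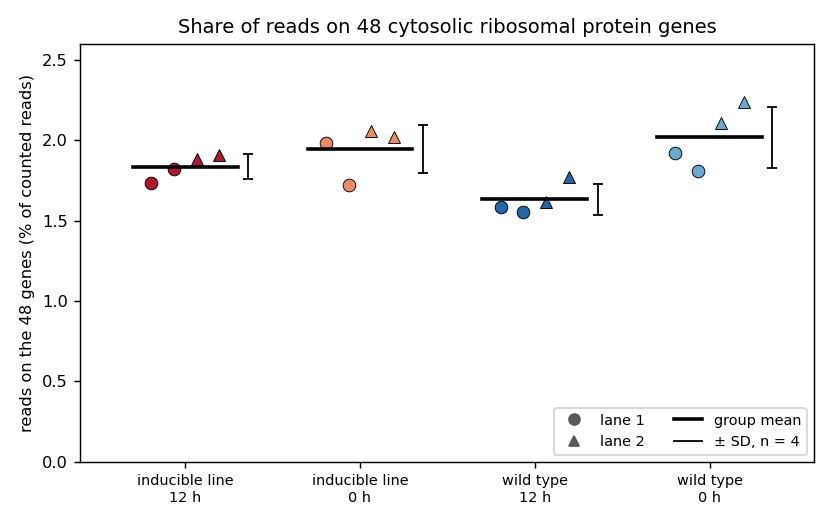
Share of reads assigned to the 48 cytosolic ribosomal protein genes (vertical axis, % of counted reads) in each library, by group. Circles are lane 1 libraries, triangles lane 2 libraries, thick lines group means and bars ± SD of 4 libraries. Wild type at 12 h lies between 1.55 and 1.78%, below all wild-type libraries at 0 h.

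In wild type, transcripts of both subunits and of the stalk were lower at 12 h after dexamethasone than at 0 h. The median over the 48 genes was log2 -0.40, a fold of 0.756, beside -0.0036 over all genes tested, and 47 of 48 were below 0. By limma with the Benjamini-Hochberg method, 6 members fell and 0 rose at an adjusted p under 0.05, the threshold for a call here, and the background was 2.45% of all genes called lower. At an unadjusted p under 0.05, 24 members were lower and 0 were higher, against 10.3% of all genes lower. The count of calls was 12 without replicate 1 and 5 without replicate 2 of wild type at 0 h, the pair that stood apart, against 4.55% and 2.37% of all genes called lower. The libraries of the times did not overlap for 9 members, all lower at 12 h, against 4.76% of all genes.

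Replicate numbers pair the libraries by lane, and a fit with the replicate number as a block called 27 members lower and 0 higher, against 7.07% of all genes lower. These 27 were 16 large-subunit, 8 small-subunit and 3 stalk genes. A term for lane in its place called 30 members, against 7.84% of all genes lower. Within lanes, 0 members were called in lane 1 alone, where 0.612% of all genes were called lower. At an unadjusted p under 0.05, 21 members were lower in lane 1 alone, against 8.42% of all genes. In lane 2 alone 15 were called lower, against 2.73% of all genes. With only the wild-type libraries in the fit the count was 0, against 0.703%, with 19 lower at an unadjusted p under 0.05, against 7.94% of all genes. DESeq2 on the recovered reads called 13 lower, against 4.79% of all genes, and edgeR called 7 lower, against 2.55%.

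The strongest call was AT3G09630, a copy of RPL4, a large-subunit protein that lines the exit tunnel. It had 10237, 8573, 10081 and 8657 normalized counts in wild type at 12 h and 12180.3, 15252, 12048 and 15360.2 in wild type at 0 h. Every 12 h library was below every 0 h library, in both lanes, whereas the inducible line held 10692, 11519, 10616 and 10895 at 12 h and 11855, 10513, 10875 and 10366 at 0 h. The wild-type change was log2 -0.54 ± 0.11 SE, a fold of 0.687, with an adjusted p of 0.011 (limma), and it stayed called with each of the 16 libraries left out in turn. It was -0.54 within lane 1 and -0.54 within lane 2, where 2 libraries a group gave no call (limma adjusted p = 0.18 and 0.066), and with the wild-type libraries alone the adjusted p was 0.1 (limma). The other listed RPL4 copy, AT5G02870, had 8395, 7417, 9217 and 8538 in wild type at 12 h and 9635, 11753, 12345 and 14399.6 in wild type at 0 h, a fall of 0.51 ± 0.13 SE on the log2 scale (limma adjusted p = 0.035).

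Both copies of RPS6 fell. This small-subunit protein is the classical substrate of the S6 kinase that acts below TOR. AT4G31700 (RPS6) had 9828, 8596, 11346 and 10531 normalized counts in wild type at 12 h and 12452, 13526, 15054 and 18871 in wild type at 0 h, so the times did not overlap and the lane 2 libraries at 0 h were highest. Its change was log2 -0.56 ± 0.13 SE with an adjusted p of 0.017 (limma), while the inducible line stayed between 11304 and 12313 at 12 h and between 10856 and 12052 at 0 h. AT5G10360 (EMB3010, the RPS6B copy) had 6293, 5843, 6076 and 6470.0 in wild type at 12 h and 8172, 6872, 9550.0 and 11284 in wild type at 0 h. The times did not overlap here either, and the change was log2 -0.52 ± 0.13 SE (limma adjusted p = 0.029), with -0.31 within lane 1 and -0.73 within lane 2.

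Among the 3 stalk genes, AT1G01100 (RPP1, an acidic protein that binds elongation factors) fell, with 7738, 6892, 8688 and 8637 normalized counts in wild type at 12 h and 10457, 9107, 13798 and 20538 in wild type at 0 h. The highest value is replicate 4 at 0 h. Its change was log2 -0.69 ± 0.19 SE at an adjusted p of 0.048 (limma), and the call was lost in 14 of the 16 fits that left out 1 library. It was -0.42 within lane 1 and -0.96 within lane 2. AT3G09200 (RPP0, the base of the stalk) had 9990.5, 8369.9, 11599 and 11969 in wild type at 12 h and 12005, 14818, 16983 and 16450.4 in wild type at 0 h, with no overlap, and log2 -0.52 ± 0.16 SE missed the threshold (limma adjusted p = 0.068, 0.0025 with the replicate block). AT2G27710 (RPP2) overlapped between times, with 971, 895, 1633 and 1628 in wild type at 12 h and 1038, 1438, 2547 and 2748 in wild type at 0 h, and its change was log2 -0.54 ± 0.31 SE (limma adjusted p = 0.35, 0.0089 with the block).

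RPL6, a large-subunit protein, is listed with 3 copies, and 1 of them passed the test. AT1G74050 had 1737, 1454, 1681 and 1858 normalized counts in wild type at 12 h and 1991, 2572, 2611 and 2495 in wild type at 0 h, without overlap, a change of log2 -0.52 ± 0.13 SE (limma adjusted p = 0.032). Its neighbour AT1G74060, 2179 bases away on the same chromosome, had 1652, 1434, 2097 and 2033 in wild type at 12 h and 1796, 2442, 2878 and 3359.7 in wild type at 0 h. The times overlapped there, and log2 -0.52 ± 0.20 SE was almost as large but not called (limma adjusted p = 0.14, 0.0056 with the block). The third copy, AT1G18540, had 5493, 5005, 4821 and 6059.6 in wild type at 12 h and 6495, 5962, 7090.4 and 6644 in wild type at 0 h, and its log2 -0.30 ± 0.11 SE was also not called (limma adjusted p = 0.13, 0.046 with the block). The difference between copies was not tested.

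**Figure D2:**
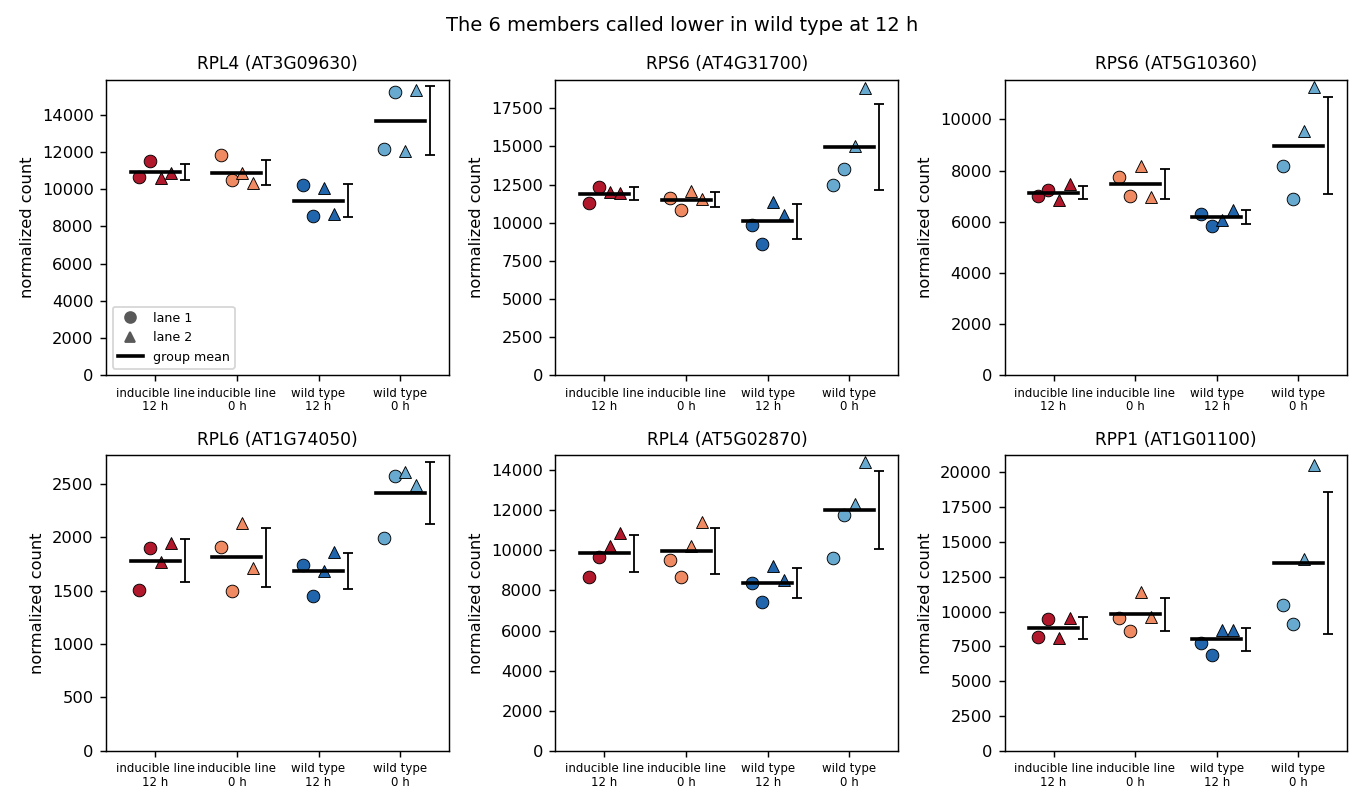
Normalized counts (vertical axis, from 0) of the 6 members called lower in wild type at 12 h, by group. Circles are lane 1 libraries, triangles lane 2 libraries, thick lines group means and thin bars ± SD of 4 libraries. In each panel the 4 libraries of wild type at 12 h lie below the 4 of wild type at 0 h, and the inducible line lies mostly between them.

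By part of the ribosome the wild-type medians were log2 -0.41 over 28 large-subunit genes, -0.35 over 17 small-subunit genes and -0.54 over 3 stalk genes. The calls without a block were 3, 2 and 1. Members that missed the threshold included P40 (AT1G72370, the main SA copy), at log2 -0.57 and a limma adjusted p of 0.053, with no overlap between times. RPS10B (AT5G41520) likewise did not overlap, at log2 -0.48 (limma adjusted p = 0.082). The lowest value among the 48 was that of AT1G33120 (RPL9), log2 -0.70 ± 0.30 SE, which was not called (limma adjusted p = 0.19), with 911, 839, 1341 and 1442 normalized counts in wild type at 12 h and 1099.9, 1395, 2402 and 2816 in wild type at 0 h. With 1 library left out, calls were lost in 2 of 16 fits for RPS6 (AT4G31700) and in 6 of 16 each for AT5G02870, AT5G10360 and AT1G74050, and upper-quartile scaling lost the calls of RPP1 and AT5G02870 (limma adjusted p = 0.064 and 0.053). Within lane 1 the 6 called members lay between -0.54 and -0.31, and within lane 2 between -0.96 and -0.53. The 1 member above 0 was RPS5A, at log2 0.16 ± 0.32 SE (limma adjusted p = 0.84).

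Several members are known by mutants, and their wild-type values are given for that reason. PFL (AT1G22780, RPS18), whose loss gives pointed first leaves, had 2023, 2173, 2991 and 3507 normalized counts in wild type at 12 h and 2659, 4098, 3335 and 3022 in wild type at 0 h, with overlap and log2 -0.31 ± 0.22 SE (limma adjusted p = 0.47, 0.19 with the block). STV1 (AT3G53020, RPL24), which acts in gynoecium patterning and in reinitiation of translation, had 6369, 5826, 5505 and 5183 in wild type at 12 h and 7822, 6826, 6301 and 6844 in wild type at 0 h, at log2 -0.28 ± 0.14 SE (limma adjusted p = 0.27, 0.068 with the block). ATL5 (AT3G25520, RPL5), which binds 5S ribosomal RNA and is known from leaf polarity mutants, had 4962, 4129, 6219 and 6618 in wild type at 12 h and 5885, 5578, 11119 and 9905 in wild type at 0 h, at log2 -0.52 ± 0.24 SE (limma adjusted p = 0.24, 0.0049 with the block). These 3 genes were not called without the block. For PGY1 and PGY2, which are among the genes of the piggyback leaf mutants, the values were log2 -0.21 ± 0.23 SE and -0.10 ± 0.20 SE (limma adjusted p = 0.67 and 0.85).

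Upstream sequences of 4 of the members that fell are shown because they hold site II elements, a motif known from plant promoters of ribosomal protein and cell-cycle genes. Those of RPS5A and PGY1 (AT2G27530, RPL10a) are shown beside them, since these members stood higher in lane 1 than in lane 2. Each is the 250 bases before the annotated gene start, 5′ to 3′ on the gene's strand, from the RefSeq TAIR10.1 genome. Capitals mark site II (TGGGCC or TGGGCT) and the telo box (AAACCCTA), each on either strand.
RPL4 AT3G09630 (chr3:2953443-2953692, plus strand): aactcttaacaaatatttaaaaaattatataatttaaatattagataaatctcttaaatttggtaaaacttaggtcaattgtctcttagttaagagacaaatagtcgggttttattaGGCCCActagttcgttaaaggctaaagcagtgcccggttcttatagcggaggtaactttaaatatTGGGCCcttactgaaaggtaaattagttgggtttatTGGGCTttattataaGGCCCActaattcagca
RPS6 AT4G31700 (chr4:15347805-15348054, minus strand): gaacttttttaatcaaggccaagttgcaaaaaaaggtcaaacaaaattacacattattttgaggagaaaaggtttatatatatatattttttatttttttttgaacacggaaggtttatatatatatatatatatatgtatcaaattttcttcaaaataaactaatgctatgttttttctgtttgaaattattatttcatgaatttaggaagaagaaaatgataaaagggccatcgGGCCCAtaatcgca
RPS6B AT5G10360 (chr5:3260255-3260504, minus strand): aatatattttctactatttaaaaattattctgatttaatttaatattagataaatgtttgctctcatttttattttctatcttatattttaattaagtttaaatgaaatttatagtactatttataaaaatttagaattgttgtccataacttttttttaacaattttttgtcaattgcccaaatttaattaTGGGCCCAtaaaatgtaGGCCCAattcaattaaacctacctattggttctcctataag
RPP1 AT1G01100 (chr1:51211-51460, minus strand): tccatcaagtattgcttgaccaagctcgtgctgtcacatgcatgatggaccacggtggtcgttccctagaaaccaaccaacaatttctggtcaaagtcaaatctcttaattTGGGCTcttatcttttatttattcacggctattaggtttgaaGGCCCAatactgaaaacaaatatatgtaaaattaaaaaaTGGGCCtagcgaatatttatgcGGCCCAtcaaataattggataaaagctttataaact
RPS5A AT3G11940 (chr3:3779546-3779795, minus strand): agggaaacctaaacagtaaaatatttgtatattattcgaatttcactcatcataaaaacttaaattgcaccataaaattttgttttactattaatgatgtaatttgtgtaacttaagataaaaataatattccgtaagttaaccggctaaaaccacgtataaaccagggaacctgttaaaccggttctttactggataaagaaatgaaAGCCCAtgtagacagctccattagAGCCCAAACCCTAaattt
PGY1 AT2G27530 (chr2:11764936-11765185, minus strand): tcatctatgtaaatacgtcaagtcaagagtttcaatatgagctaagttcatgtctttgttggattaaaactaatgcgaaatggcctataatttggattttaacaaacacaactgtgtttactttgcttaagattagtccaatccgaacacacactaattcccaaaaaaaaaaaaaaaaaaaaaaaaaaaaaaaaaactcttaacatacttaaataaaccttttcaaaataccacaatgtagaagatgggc
In RPS6B the motif overlaps itself on opposite strands, and in RPS5A a site II match shares a base with the telo box. The windows of AT5G02870 and AT1G74050 overlap exons of other genes and are not shown.

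Site II was in 30 of the 48 windows (62.5%), against 21.9% of 20198 tested protein-coding genes. The telo box was in 8 of 48 (16.7%), against 3.56%, and both motifs were in 6 (12.5%), against 1.34%. These shares were not particular to the members. Site II was in 69.4% of further cytosolic ribosomal protein genes and in 59.4% of ribosome biogenesis genes, and the telo box in 20.8% and 18.8%. Nuclear genes for plastid ribosomal proteins had lower shares, 33.3% for site II and 6.06% for the telo box. Of the 6 members called in wild type, 4 held site II and 0 held the telo box. Site II was in 18 of the 27 members called with the block (66.7%) and in 12 of the other 21 (57.1%). These are matches of letters in a window, not measured binding sites.

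In the inducible line, 12 h against 0 h gave values closer to 0. The median over the 48 genes was log2 -0.10, a fold of 0.936, beside 0.0095 over all genes tested, and 37 of 48 were below 0. Neither limma nor edgeR nor DESeq2 called a member (0 higher, 0 lower), where limma called 5.12%, edgeR 5.14% and DESeq2 7.31% of all genes. At an unadjusted p under 0.05 the count of members was also 0 by limma, by edgeR and by DESeq2. At that cut limma counted 1355 genes higher and 1910 lower among all 20756 tested. With the replicate block 0 members were called, against 8.88% of all genes, and 1 was lower at an unadjusted p under 0.05, against 11.9%. The lowest value was AT2G42740 (RPL11, a large-subunit protein, RefSeq symbol RPL16A), with 206, 190.1, 238 and 254 normalized counts in the inducible line at 12 h and 265, 262, 399 and 350.3 in the inducible line at 0 h. Those libraries did not overlap, which held for 1 member, against 7.32% of all genes lower, and log2 -0.51 ± 0.29 SE was not called (limma adjusted p = 0.46).

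The highest value in the inducible line over time was AT3G13580, the lower of both listed RPL7 copies, with 437, 525, 895 and 939 normalized counts in the inducible line at 12 h and 538, 403, 810.0 and 684 in the inducible line at 0 h. The lanes, not the times, set its libraries apart, and log2 0.17 ± 0.36 SE was not called (limma adjusted p = 0.92). For the RPL4 copy AT3G09630 the inducible-line change was log2 0.005 ± 0.11 SE, with an interval of 2 SE on either side from -0.22 to 0.23. For AT4G31700 (RPS6) it was log2 0.048 ± 0.13 SE, from -0.20 to 0.30. Neither interval reached the wild-type value of the same gene, but the intervals leave out the error of that value. Both genes were also picked for their fall in wild type. The interaction below compares the lines, and limma called it for neither gene.

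**Figure D3:**
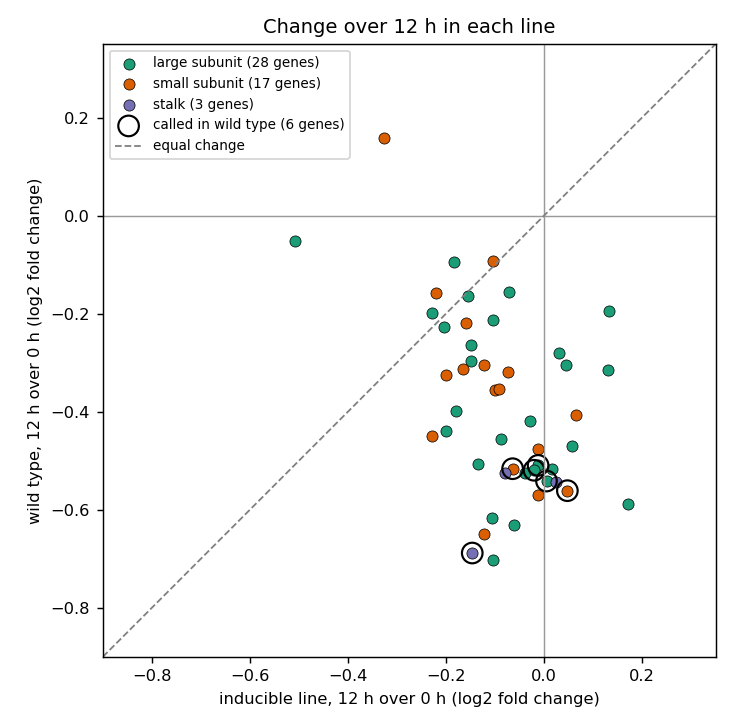
Log2 fold change at 12 h over 0 h of each of the 48 members in the inducible line (horizontal axis) and in wild type (vertical axis), coloured by part of the ribosome, with the 6 members called in wild type ringed. Points below the dashed line of equal change, 42 of 48, were lower in wild type than in the inducible line. The member above 0 on the vertical axis is RPS5A.

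The difference between both changes, inducible line minus wild type, is the line-by-time interaction. Its median over the 48 genes was log2 0.34, beside -0.0025 over all genes tested, and 42 of 48 were above 0. It uses the wild-type libraries already described, so it is not separate evidence of their fall. By limma 0 members were called, against 0.511% of all genes, and at an unadjusted p under 0.05 the members counted 7 higher and 0 lower, against 4.98% of all genes higher. By edgeR 0 members were called, against 0.516% of all genes. By DESeq2 2 were called higher, the RPL4 copy AT3G09630 and RPS6 (AT4G31700), against 0.569% of all genes. With the replicate block the count was 1, RPS6, at an adjusted p of 0.045 (limma), against 0.689% of all genes higher, and with a lane term it was 2, both higher, against 0.92%.

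RPS6 (AT4G31700) had an interaction of log2 0.61 ± 0.18 SE (limma adjusted p = 0.16), with 0.57 within lane 1 and 0.65 within lane 2. The RPL4 copy AT3G09630 had log2 0.55 ± 0.16 SE (limma adjusted p = 0.16), with 0.53 and 0.56 within the lanes. The largest positive value was that of the RPL7 copy AT3G13580, log2 0.76 ± 0.51 SE (limma adjusted p = 0.61). The largest negative value was that of RPS5A, log2 -0.48 ± 0.45 SE (limma adjusted p = 0.74). In both lanes 35 of 48 members were above 0.

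Between the lines at 12 h, the values of nearly all members lay above 0, with small differences that were not called. The median was log2 0.15, a fold of 1.11, beside 0.011 over all genes, and 47 of 48 were above 0. By limma, edgeR and DESeq2 0 members were called, where limma called 1.2%, edgeR 1.15% and DESeq2 2.06% of all genes higher. At an unadjusted p under 0.05 the members counted 1 higher by limma, 1 by edgeR and 2 by DESeq2, and 0 lower by each, against 5.9% of all genes higher by limma. With the replicate block the calls were 0 as well, against 2.52% higher, and 11 members were higher at an unadjusted p under 0.05, against 9.06% of all genes. The lines did not overlap for 3 of 48 members, all higher in the inducible line, a count not far from the 4.29% found among all genes. These were the RPL4 copy AT3G09630, the RPS6B copy AT5G10360 and SAC52.

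The largest positive value there was RPL23AA (AT2G39460, a large-subunit protein near the tunnel exit), with 10302, 11706, 12642 and 13665 normalized counts in the inducible line at 12 h and 9064, 8201, 9273 and 12618 in wild type at 12 h. The lines overlapped by replicate 4 of wild type, and log2 0.32 ± 0.19 SE was not called (limma adjusted p = 0.53). The 1 member below 0 was RPL11 (AT2G42740), with 206, 190.1, 238 and 254 in the inducible line at 12 h and 202, 196, 268 and 401 in wild type at 12 h, at log2 -0.21 ± 0.29 SE (limma adjusted p = 0.9).

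At 0 h, before treatment, most members had values below 0 between the lines. The median of the inducible line over wild type at 0 h was log2 -0.16, a fold of 0.897, beside 0.0021 over all genes, and 35 of 48 were below 0. By limma and edgeR 0 members were called, where limma called 0.573% and edgeR 0.631% of all genes lower. DESeq2 called 3 lower, against 3.16%. At an unadjusted p under 0.05 limma counted 7 members lower and 1 higher, and edgeR 9 lower, against 9.14% of all genes lower by limma. With the replicate block 11 members were called lower and 1 higher, against 5.46% lower and 5.87% higher among all genes. A lane term called 13 lower and 1 higher, against 6.3% lower and 6.43% higher. In lane 2 alone 11 were called lower and 1 higher, against 4.3% and 4.6%, and in lane 1 alone 0 were called, with 1 lower at an unadjusted p under 0.05, against 4.85% of all genes. The lines did not overlap for 2 of 48 members, both lower in the inducible line, the RPL4 copy AT3G09630 and RPS6 (AT4G31700). That count is near the 3.97% found among all genes.

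RPS6 (AT4G31700) had 11633, 10856, 12052 and 11521 normalized counts in the inducible line at 0 h and 12452, 13526, 15054 and 18871 in wild type at 0 h, which gave log2 -0.36 ± 0.13 SE (limma adjusted p = 0.13, 0.041 with the block). The lowest value at 0 h was that of the RPL7 copy AT3G13580, with 538, 403, 810.0 and 684 in the inducible line at 0 h and 495, 668, 1127 and 1524 in wild type at 0 h. The lines overlapped through lane 1, and log2 -0.56 ± 0.36 SE had a limma adjusted p of 0.42, or 0.02 with the block. The highest was RPS5A, which marks dividing cells of embryos and meristems. It had 33352, 27802, 16002 and 24497 in the inducible line at 0 h and 26898, 20318, 10954 and 9379 in wild type at 0 h, and log2 0.67 ± 0.32 SE had a limma adjusted p of 0.26, or 0.016 with the block.

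Lane, the sequencing lane that the labels give, also set the members apart. Of the 48 members, 36 were higher in lane 2 than in lane 1 in all 4 groups and 8 were lower in all 4. The median difference of lane 2 over lane 1 was log2 0.30 in the inducible line at 12 h, 0.28 in the inducible line at 0 h, 0.33 in wild type at 12 h and 0.39 in wild type at 0 h. The medians over all genes tested, which the scaling by size factors keeps small, lay between -0.0063 and 0.0078 in these groups. The RPL7 copy AT3G13580 was highest, between 0.68 and 1.19 over the 4 groups. RPS5A was lowest, between -1.21 and -0.55. PGY1 followed, with 19714, 19146, 12662 and 12180.3 normalized counts in the inducible line at 12 h, 21596, 19133, 13981 and 13487 in the inducible line at 0 h, 15650.3, 16065, 11169 and 11065 in wild type at 12 h and 23609, 15393, 12127 and 12728 in wild type at 0 h, so that in every group the lane 2 libraries lay below the lane 1 libraries. Other shares of the reads differed between the lanes too. Further cytosolic ribosomal protein genes, outside the 48, took a higher mean share in lane 2 in every group. With the groups in the same order, their means were 2.76, 2.87, 2.40 and 2.95% in lane 1 and 3.04, 3.44, 2.79 and 3.72% in lane 2. Reads from the mitochondrial genome made up 0.00764% of reads in lane 1 and 0.0373% in lane 2 in the inducible line at 12 h, 0.00883% of reads in lane 1 and 0.0201% in lane 2 in the inducible line at 0 h, 0.0158% of reads in lane 1 and 0.0298% in lane 2 in wild type at 12 h and 0.0120% of reads in lane 1 and 0.0442% in lane 2 in wild type at 0 h. Reads from the chloroplast genome made up 0.611% in lane 1 and 0.579% in lane 2 in the inducible line at 12 h, 0.798% in lane 1 and 0.447% in lane 2 in the inducible line at 0 h, 0.932% in lane 1 and 0.442% in lane 2 in wild type at 12 h and 0.704% in lane 1 and 0.378% in lane 2 in wild type at 0 h (means of 2 libraries). In the inducible line at 12 h the lanes overlapped in the chloroplast share, with 0.523 and 0.700% in lane 1 and 0.614 and 0.543% in lane 2. The part of the mitochondrial and chloroplast reads in the members' lane differences was not tested. The sources used here do not say whether culture or extraction differed with the lane.

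The sign of the lane difference went with the members' level, and large differences in both directions were found. Over the 48 members the signed difference, lane 2 minus lane 1, had a Pearson r of -0.577 with the log2 mean level, -0.0511 with mRNA GC content (36.9 to 46.6%) and -0.0406 with mRNA length. These are descriptions across genes that share all 16 libraries. The wild-type change stood on the same side of 0 in both lanes for 45 of 48 members, all of them lower at 12 h. Its median was log2 -0.45 over the 38 members that were higher in lane 2 by the mean and -0.21 over the 10 that were lower. Of the 6 members that fell, 1 belonged to those 10, the RPL4 copy AT3G09630, with a lane difference of -0.031.

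**Figure D4:**
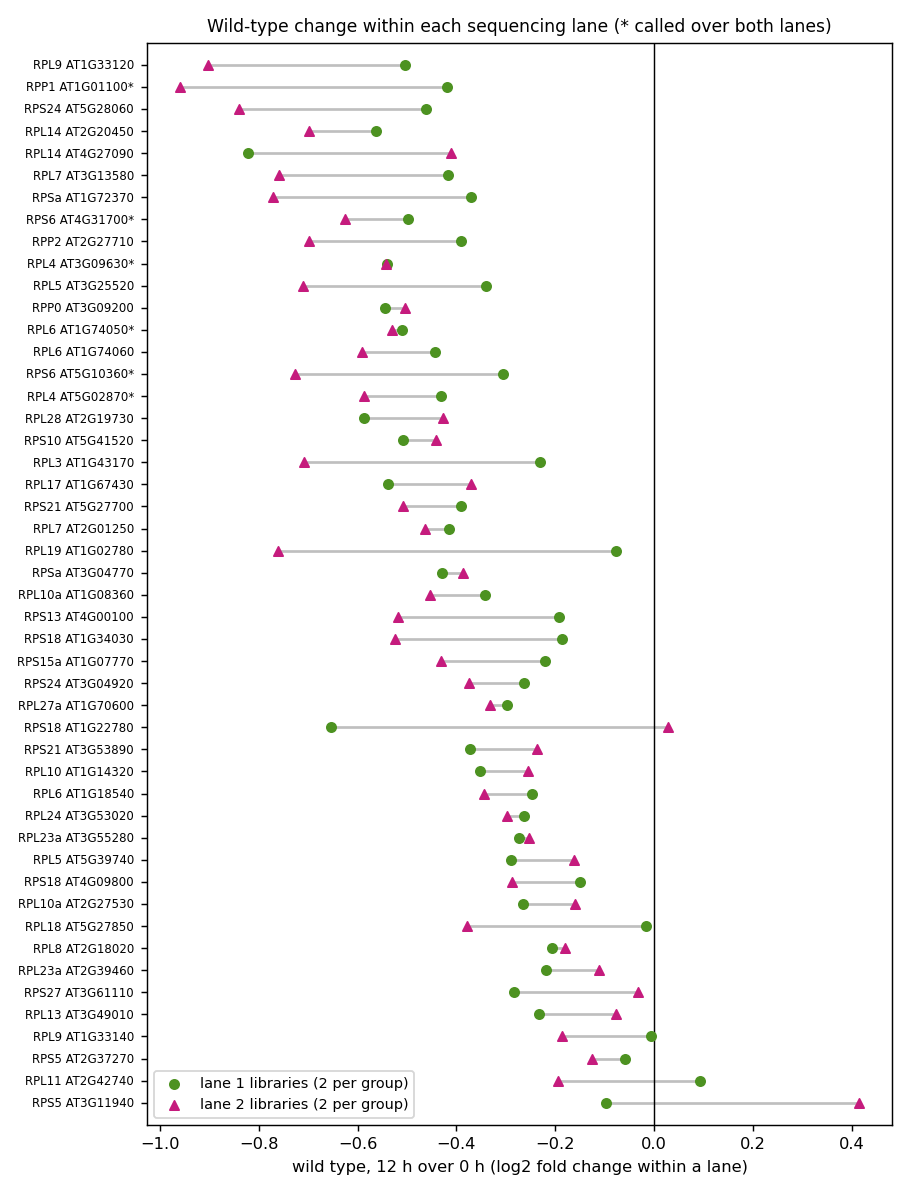
Wild-type log2 fold change, 12 h over 0 h, computed within lane 1 (circles) and within lane 2 (triangles) from 2 libraries per group, for each of the 48 members. Asterisks mark the 6 members called over both lanes. For 45 members both points are below 0, and the exceptions are RPS18 AT1G22780, RPL11 and RPS5A.

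**Figure D5:**
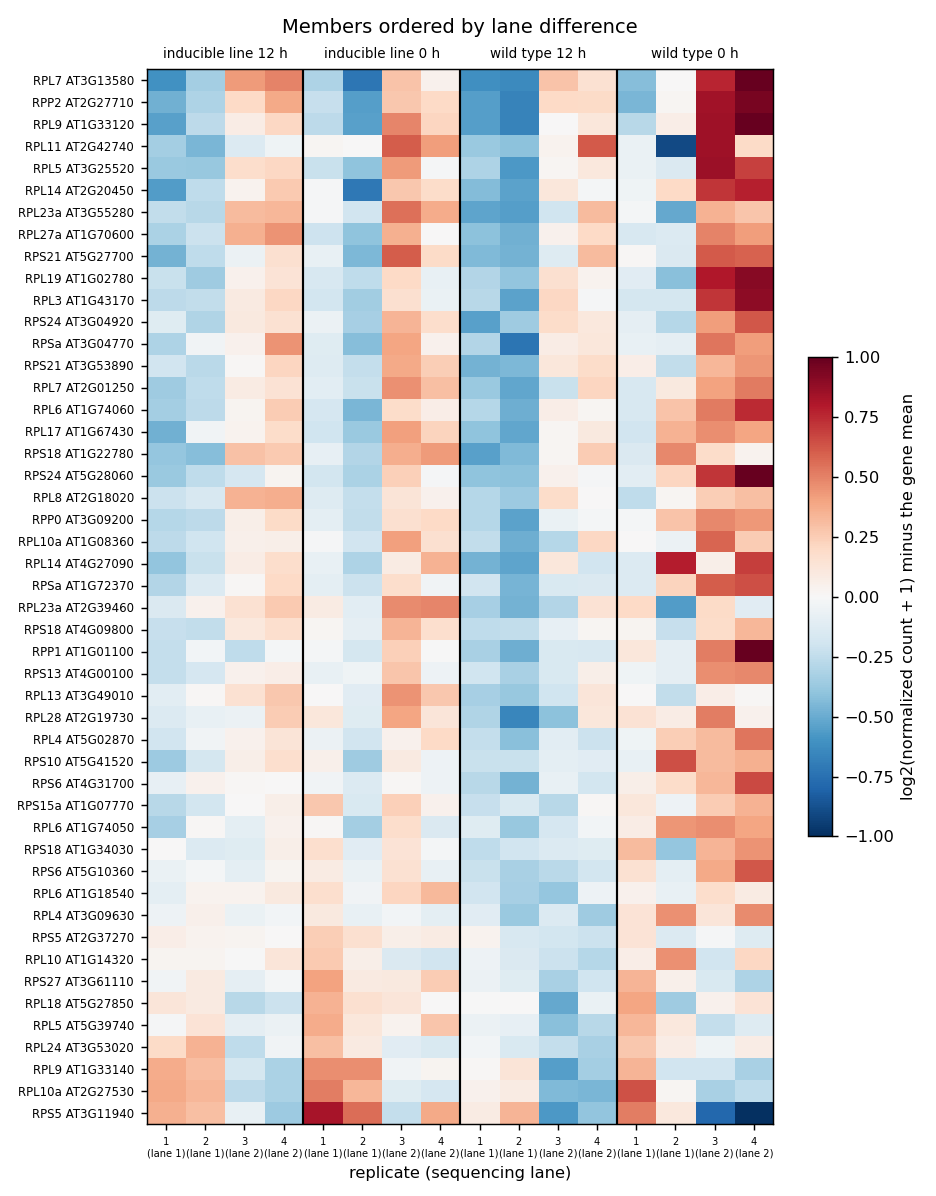
Deviation of log2(normalized count + 1) from each member's mean over the 16 libraries (colour, drawn at the end colour beyond ± 1), with members ordered by the lane difference and libraries by group, replicate and lane. In every group, most rows are bluer in replicates 1 and 2 and redder in replicates 3 and 4, and the lowest rows show the opposite.

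Gene copies of 1 family stood at different levels. The RPSA copies were farthest apart, with P40 at a log2 ratio of 4.80 over RPSAb in the inducible line at 12 h and 5.03 in wild type at 0 h. RPL14 followed, with AT2G20450 at -3.67 relative to AT4G27090 in the inducible line at 12 h and -3.58 in wild type at 0 h. The RPL6 copies AT1G74050 and AT1G74060 were near-equal, at -0.10 in the inducible line at 12 h and -0.087 in wild type at 0 h. For RPS24 the log2 ratio of AT3G04920 over AT5G28060 was 0.022 in the inducible line at 12 h but -0.42 in wild type at 0 h. RPL9 is uncertain, since AT1G33120 and PGY2 (AT1G33140) have coding sequences that are 99.1% identical and share an unbroken run of 565 mRNA bases, so reads may have been split or dropped between them. AT1G33120 was 1.07 higher on the log2 scale in lane 2 in wild type at 0 h, whereas PGY2 gave -0.33 there. The other 17 pairs of copies were 70.2 to 94.2% identical in coding sequence.

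Other parts of the translation machinery were read in the same comparison, wild type at 12 h against 0 h, from lists also drawn up with earlier results known. Of 161 further cytosolic ribosomal protein genes tested, 24 fell and 0 rose, with a median of log2 -0.45, read against the same 2.45% of all genes called lower. Of 32 ribosome biogenesis genes, 7 fell and 0 rose (median log2 -0.30). FIB2 (AT4G25630, a fibrillarin that methylates ribosomal RNA) stood at 1486 ± 229 normalized counts in wild type at 12 h and 2460.3 ± 410.1 in wild type at 0 h (SD, n = 4 each), and fell by 0.72 ± 0.15 SE on the log2 scale (limma adjusted p = 0.0087). NUC-L1 (AT1G48920, the main nucleolin) was at 7077 ± 771 in wild type at 12 h and 10222 ± 1810.1 in wild type at 0 h (limma adjusted p = 0.031).

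Where 2.27% of all genes were called higher, 1 of 38 translation factors rose, and 10 fell (median log2 -0.25). EIF2 ALPHA (AT5G05470, a subunit of the factor that brings the initiator tRNA) was among them, at 637 ± 25.2 in wild type at 12 h and 1017 ± 225 in wild type at 0 h (limma adjusted p = 0.0074). Of 33 nuclear genes for plastid ribosomal proteins, 5 fell and 0 rose (median log2 -0.37). By limma with only the wild-type libraries, 2 of the 161 further ribosomal protein genes were called lower, against 0.703% of all genes. There 0 biogenesis genes, 0 translation factors and 0 plastid ribosomal protein genes were called, so FIB2, NUC-L1 and EIF2 ALPHA lost their calls. At an unadjusted p under 0.05, 74, 13, 14 and 15 genes of these lists were lower there, against 7.94% of all genes. In lane 1 alone the calls were 1, 0, 0 and 0, against 0.612%. Of 12 TOR and growth-signalling genes 0 passed the test by limma (1 at an unadjusted p under 0.05), with a median of 0.027, and of 12 mitotic genes 0 passed (3 at an unadjusted p under 0.05), with a median of -0.045. By edgeR the counts of calls in these lists were 0 and 0. With the replicate block and with the lane term 1 TOR gene was called higher, YAK1 (AT5G35980, a kinase that acts below TOR), at log2 0.46 ± 0.20 SE without the block and a limma adjusted p of 0.21, 0.0073 with the block and 0.0039 with the lane term. The mitotic list gave 0 calls in both. Of all genes 6.19% were called higher with the block and 6.68% with the lane term. A count of 1 among 12 TOR genes is near those shares.

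In the inducible line over time, 0 of the 32 biogenesis genes and 0 of the 38 translation factors passed by limma, with 1 and 0 at an unadjusted p under 0.05 and medians of log2 0.058 and -0.017. Of the further ribosomal protein genes 1 fell, where 3.68% of all genes were called lower. Between the lines at 12 h, where 1.2% of all genes were called higher in the inducible line and 2.2% lower, 2 biogenesis genes were called higher, AT2G37990 and FIB2. Of 12 mitotic genes 4 were called higher, among them CYCB1;1 (AT4G37490, a mitotic cyclin) at 206 ± 22.7 normalized counts in the inducible line at 12 h and 123 ± 13.8 in wild type at 12 h (SD, n = 4 each).

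Marker genes of other tissues were measured beside these results. In wild type over time, 0 of 7 leaf photosynthesis genes, 0 of 7 root genes, 0 of 4 epidermal genes and 0 of 4 vascular genes passed the test by limma, with 1, 0, 1 and 1 at an unadjusted p under 0.05, and by edgeR the counts of calls were 0, 0, 0 and 0. With the replicate block 1 photosynthesis gene and 1 epidermal gene were called lower and 1 vascular gene higher, against 7.07% of all genes lower and 6.19% higher. With the lane term the calls were RCA (AT2G39730, Rubisco activase) and RBCS1B (AT5G38430, a small subunit of Rubisco) lower, FDH (AT2G26250, a wax and cutin enzyme of the epidermis) lower and SUC2 (AT1G22710, the phloem sucrose carrier) higher, with limma adjusted p of 0.036, 0.046, 0.017 and 0.011. The lane term called 7.84% of all genes lower and 6.68% higher, and lists of 4 or 7 genes are too short to set apart from such shares. Between the lines at 12 h, without a block, the root gene PHT1;1 (AT5G43350, a phosphate carrier) and the epidermal gene ATML1 (AT4G21750) were called lower in the inducible line, at log2 -0.85 and -0.57 (limma adjusted p = 0.014 and 0.029). Both lists had mixed signs there. Of the 7 root genes 3 lay above 0 and 4 below. Of the 4 epidermal genes 2 lay above 0, up to log2 0.46, and 2 below. At an unadjusted p under 0.05, 1 epidermal gene was higher and 2 were lower, and 0 root genes were higher and 2 lower. Of all genes 2.2% were called lower. The photosynthesis list was more one-sided between the lines at 12 h, with a median of log2 -0.35, 6 of 7 genes below 0 and 1 above. Of these 7, 0 were called by limma and 3 were lower at an unadjusted p under 0.05, where 1631 of 20756 genes were. The lane term called 1 of them lower, against 4.19% of all genes. In the inducible line over time all 7 lay below 0, and 0 were called by limma without a block. The summed level of the photosynthesis genes was 244164 to 323355 normalized counts in wild type at 12 h and 247891 to 377497 in wild type at 0 h, and that of the root genes was 6061 to 6599.9 and 4708 to 6618 in the same groups. The part of tissue make-up in the members' values was not tested.

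The genes outside the list whose log2 levels were most like the mean of the 48 members over the 16 libraries were AT3G04840 (a ribosomal protein S3Ae gene, Pearson r = 0.971), NAP1;1 (AT4G26110, a nucleosome assembly protein, 0.967), RACK1C_AT (AT3G18130, a scaffold protein of the small subunit, 0.957), AT4G12600 (an L7Ae-family protein, 0.956) and HDA3 (AT3G44750, a histone deacetylase, 0.950). All libraries share the lane pattern, which enters these values. Among the members, 27 of 48 had an r above 0.8 with the mean of the others. RPS5A had the lowest, -0.620, and PGY2 and PGY1 had -0.418 and -0.418.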

How the data were processed

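The deposited values are a signal, reads per gene that the authors divided by 1 size factor per library, and the tools the submitters' processing notes list are TopHat, SAMtools, HTSeq and DESeq2, with the TAIR10 build and no versions. In each library 100% of values were whole multiples of 1 step within 0.001 read, so whole reads were recovered. The size factors equal median-of-ratios factors computed from these reads. Such factors keep the median log2 difference over all genes small, so that median reflects the scaling and is not a separate observation. The sources used here give neither the strand setting nor how multiply aligned reads were treated. The main test was limma 3.58.1 (R 4.3.3) on log2(normalized count + 1), with intensity trend and robust moderation, over 20756 genes and 16 libraries as 4 group means, with Benjamini-Hochberg adjustment and a threshold of 0.05. Folds on this scale understate changes of low genes. Alternatives were edgeR 4.0.16 and DESeq2 1.42.0 on the recovered reads, other scalings, a pseudocount of 10, no filter, a replicate block, a lane term, single lanes, the compared groups alone and leaving out each library. Same-numbered libraries of different groups deviated together, with correlations over all genes of 0.521 to 0.718, as did other numbers of the same lane (0.533 to 0.765), so the numbers pair libraries through the lane the labels give. Positions and promoters are from RefSeq TAIR10.1, which matched 32835 of 33602 genes and all 48 members. The members and lists were chosen with earlier results of these data known. Members named are, per comparison, the called ones with the smallest adjusted p, or the largest rise and fall where none was called, the highest and lowest by level, copies that differ in a call, and up to 3 genes per other list. Any other member was named with its values known. The limma, edgeR and DESeq2 fits without a block were also run on simulated counts. Those counts held no lane effect, so they say nothing about the block or the lane term.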

Additional observations from a re-analysis of the deposited data

Results flagged for a closer look

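AT5G27850 (RPL18), the member with the highest mean level, had 16180.2 normalized counts in replicate 3 of wild type at 12 h, far below the other 3 libraries of its group (23020.1, 23095 and 22003). It was the 1 such case among 60 sets of 4 libraries examined, and chance alone marks about 1 in 20 such sets.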

How the results depend on the processing

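The median log2 of the 48 members kept its sign in all 5 comparisons under every alternative run and moved by less than 0.190, the SD of the members' median log2 deviation between libraries of a group, also when any 1 library was left out. That SD includes the lane difference and is larger than the medians between the lines and in the inducible line over time, so it is a loose bound there. With 1 library left out, the median ranged from 0.075 to 0.20 between the lines at 12 h and from -0.25 to -0.090 at 0 h. Counts of calls depended on the model of the lanes. In wild type over time, where limma called 6, DESeq2 gave 13, the replicate block 27, a lane term 30, lane 2 alone 15, and lane 1 alone and the wild-type libraries alone 0. Of all genes these fits called 8.71, 13.25, 14.52, 5.49, 0.901 and 1.52%, in that order. Leaving out 1 library gave 1 to 12. The count was 12, 2 and 1 without replicates 1, 3 and 4 of wild type at 0 h, and 2, 1 and 3 without replicates 1, 2 and 3 of wild type at 12 h, where 2.29 to 9.10% of all genes were called in these 6 fits. For the lines at 0 h, where limma called 0, DESeq2 gave 3, the block 12, a lane term 14 and lane 2 alone 12. Of all genes these fits called 6.55, 11.3, 12.7 and 8.89%, in that order. Leaving out 1 library gave 0 to 5, the 5 without replicate 1 of wild type at 0 h, where 8.69% of all genes were called, near the members' share of 10.4%. For the interaction, also at 0, DESeq2 gave 2, the block 1 and a lane term 2, where 1.87, 2.50 and 2.82% of all genes were called. Leaving out 1 library gave 0 to 1, the 1 again without replicate 1 of wild type at 0 h, where 2.19% of all genes were called. The cause was not tested. In the inducible line over time the median ranged from -0.16 to -0.019 when 1 library was left out. The block changed no other call count of the members. RPL11 (AT2G42740) between the lines at 12 h ranged from log2 -0.34 to 0.0042, and the RPL7 copy AT3G13580 in the inducible line over time from -0.011 to 0.37, when 1 library was left out. Without the 20 highest other genes the members' share in the inducible line at 12 h was 1.94%, against 1.84%. Depth was not limiting, since every member had at least 119 reads in every library.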
